A study of Mus musculus with 33 samples.

Results

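Cells make cholesterol from acetyl-CoA through mevalonate, squalene and lanosterol, and they make fatty acids from the same precursor, and 38 genes of these routes and of their control are described here in sorted mouse bone marrow cells. The genes were taken as a given list of symbols and matched to the gene identifiers of a deposited count table, where they are 38 of 54752 features. They comprise 8 enzymes from acetyl-CoA and mevalonate to squalene, 10 enzymes from squalene to cholesterol, 6 genes of the sterol regulatory element-binding protein (SREBP) machinery and sterol transport, 9 genes of fatty acid synthesis, elongation and desaturation, and 5 genes of the liver X receptors and their targets. All 38 had enough counts to be tested.

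The libraries are bulk RNA sequencing of populations sorted from mouse bone marrow, 3 biological replicates in each of 11 groups. In 4 groups, sepsis Ly6C- GMP, sepsis proNeu1, sepsis proNeu2 and sepsis preNeu, the cells came from mice that had undergone mid-grade CLP 3 days earlier (caecal ligation and puncture, a surgery that causes abdominal sepsis). The 7 other groups came from mice described as wild-type controls, without mention of sham surgery, so surgery and infection cannot be told apart. They were Ly6C- GMP (granulocyte-monocyte progenitors negative for Ly6C), proNeu1, proNeu2 and preNeu along the neutrophil path, and cMoP (the common monocyte progenitor), TpMo (the transitional pre-monocyte) and Ly6Chi monocyte along the monocyte path. Strain, age and sex are not given in the sources used here, and no monocyte-path group was taken from septic mice.

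Sterol output is controlled at the endoplasmic reticulum, where SCAP escorts the SREBP precursors to the Golgi when sterols are low and the INSIG proteins hold SCAP back when sterols are high. SREBP encoded by Srebf2 acts mainly on cholesterol genes and SREBP-1c, a product of Srebf1, mainly on fatty acid genes. Liver X receptors, encoded by Nr1h2 and Nr1h3, sense oxysterols and induce the cholesterol exporters Abca1 and Abcg1, the ubiquitin ligase gene Mylip and Srebf1 itself. Dividing bone marrow precursors draw on both routes for membranes.

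Promoter windows of RefSeq genes on GRCm38.p6 (250 bases before to 50 bases after the annotated start) were found for 30 of the 38 genes. Each window was searched on both strands for TCACNCCAC, a form of the sterol regulatory element, and for CCAAT, the box bound by NF-Y, a factor known to act beside SREBPs. The first was found in 1 of the 30 genes, Hmgcs1 (3.33%, against 1.44% of 27025 genes with a window), and the second in 22 of the 30 (73.3%, against 41.1%). These are matches of letters in a window, and binding was not measured. Genes lower in sepsis on average also held CCAAT boxes, with 3 in Mylip, 3 in a window of Insig2 and 1 in Tm7sf2. Acat2, Fads2 and Nr1h2, lower as well, held none. The 250 bases before the start are shown for 4 genes that were higher in sepsis, with both motifs in capitals wherever they occur, to set windows with many boxes beside a window with none. Hmgcs1 holds the sterol element and 3 CCAAT boxes (chr13:119690101-119690350, plus strand), Mvk holds 5 boxes (chr5:114444019-114444268, plus strand), Fasn holds 3, of which the last pair overlap (chr11:120824548-120824797, minus strand), and Elovl6, with the largest mean rise in sepsis, holds neither motif (chr3:129532136-129532385, plus strand).
Hmgcs1: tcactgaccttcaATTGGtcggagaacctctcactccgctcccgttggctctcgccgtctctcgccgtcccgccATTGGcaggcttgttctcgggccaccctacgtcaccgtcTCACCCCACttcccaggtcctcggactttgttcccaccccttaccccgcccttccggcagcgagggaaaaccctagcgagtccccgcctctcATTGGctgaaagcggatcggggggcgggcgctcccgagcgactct
Mvk: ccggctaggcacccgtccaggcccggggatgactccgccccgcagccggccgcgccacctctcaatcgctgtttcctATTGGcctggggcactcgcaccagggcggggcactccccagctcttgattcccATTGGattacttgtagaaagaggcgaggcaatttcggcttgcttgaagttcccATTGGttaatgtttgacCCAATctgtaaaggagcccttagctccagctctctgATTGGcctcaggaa
Fasn: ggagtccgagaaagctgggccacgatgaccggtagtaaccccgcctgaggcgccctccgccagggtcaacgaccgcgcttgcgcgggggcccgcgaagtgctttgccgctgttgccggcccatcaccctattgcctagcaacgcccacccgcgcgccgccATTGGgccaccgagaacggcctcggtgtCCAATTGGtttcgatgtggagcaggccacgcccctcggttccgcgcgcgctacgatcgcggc
Elovl6: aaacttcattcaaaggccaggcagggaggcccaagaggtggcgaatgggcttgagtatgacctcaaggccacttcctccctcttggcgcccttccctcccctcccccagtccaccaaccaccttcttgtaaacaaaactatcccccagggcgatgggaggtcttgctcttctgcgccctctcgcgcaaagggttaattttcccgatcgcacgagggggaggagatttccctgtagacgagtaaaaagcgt

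Levels are given as CPM, counts scaled to a common library total after TMM normalisation, and a change is a log2 fold change ± SE from edgeR's quasi-likelihood test in 1 fit of all 33 libraries. A gene is called higher or lower where its p, adjusted over 18198 tested genes by the Benjamini-Hochberg method, is under 0.05. Library totals ran from 5517734 to 39977745 counts. The 5 shallow libraries, with at most 6781973 counts against at least 17237611 in the others, were sepsis proNeu1 replicate 1, sepsis preNeu replicate 3, proNeu1 replicate 1, preNeu replicate 3 and Ly6Chi monocyte replicate 2. Each call on the 38 genes was refitted under 13 other settings (31 for the mean sepsis effect and the interaction), including the loss of each library compared, and calls described without a remark held in all of them. The steps between populations and the sepsis effects use the same libraries, so they are not independent of each other. The 9 monocyte-path libraries had 61.2 to 94.7 CPM of the Y-linked Ddx3y and at most 1.24 CPM of Xist, and the 24 neutrophil-path libraries at most 0.783 CPM of Ddx3y and 155 to 503.5 CPM of Xist. The step from Ly6C- GMP to cMoP therefore also compares sexes, and these cannot be told apart. The 6 monocyte markers summed to 5934 to 7954 CPM in Ly6Chi monocytes against 439 to 558 CPM in Ly6C- GMP, and the 6 later neutrophil markers to 69950 to 108300 CPM in preNeu against 1891 to 3743 CPM in proNeu2.

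Levels of different genes can be set side by side only per kilobase. The length used was the one given with the counts, a value per gene and not per transcript. On that scale Acly, which supplies cytosolic acetyl-CoA to both routes, averaged 78.4 to 114 CPM per kb over the 11 groups, and Elovl5, an elongase of polyunsaturated fatty acids, 42.4 to 137 CPM per kb. Ebp, a sterol isomerase, averaged 31.1 to 43.3 CPM per kb. At the low end Abca1 averaged 0.05 to 0.67 CPM per kb, Scd1 0.01 to 0.46 and Nr1h3 0.28 to 2.74 CPM per kb. Acly, Pmvk, Hsd17b7, Abca1 and Scd1 were called in none of the 15 comparisons, and the matching count over all genes was not made.

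**Figure D1:**
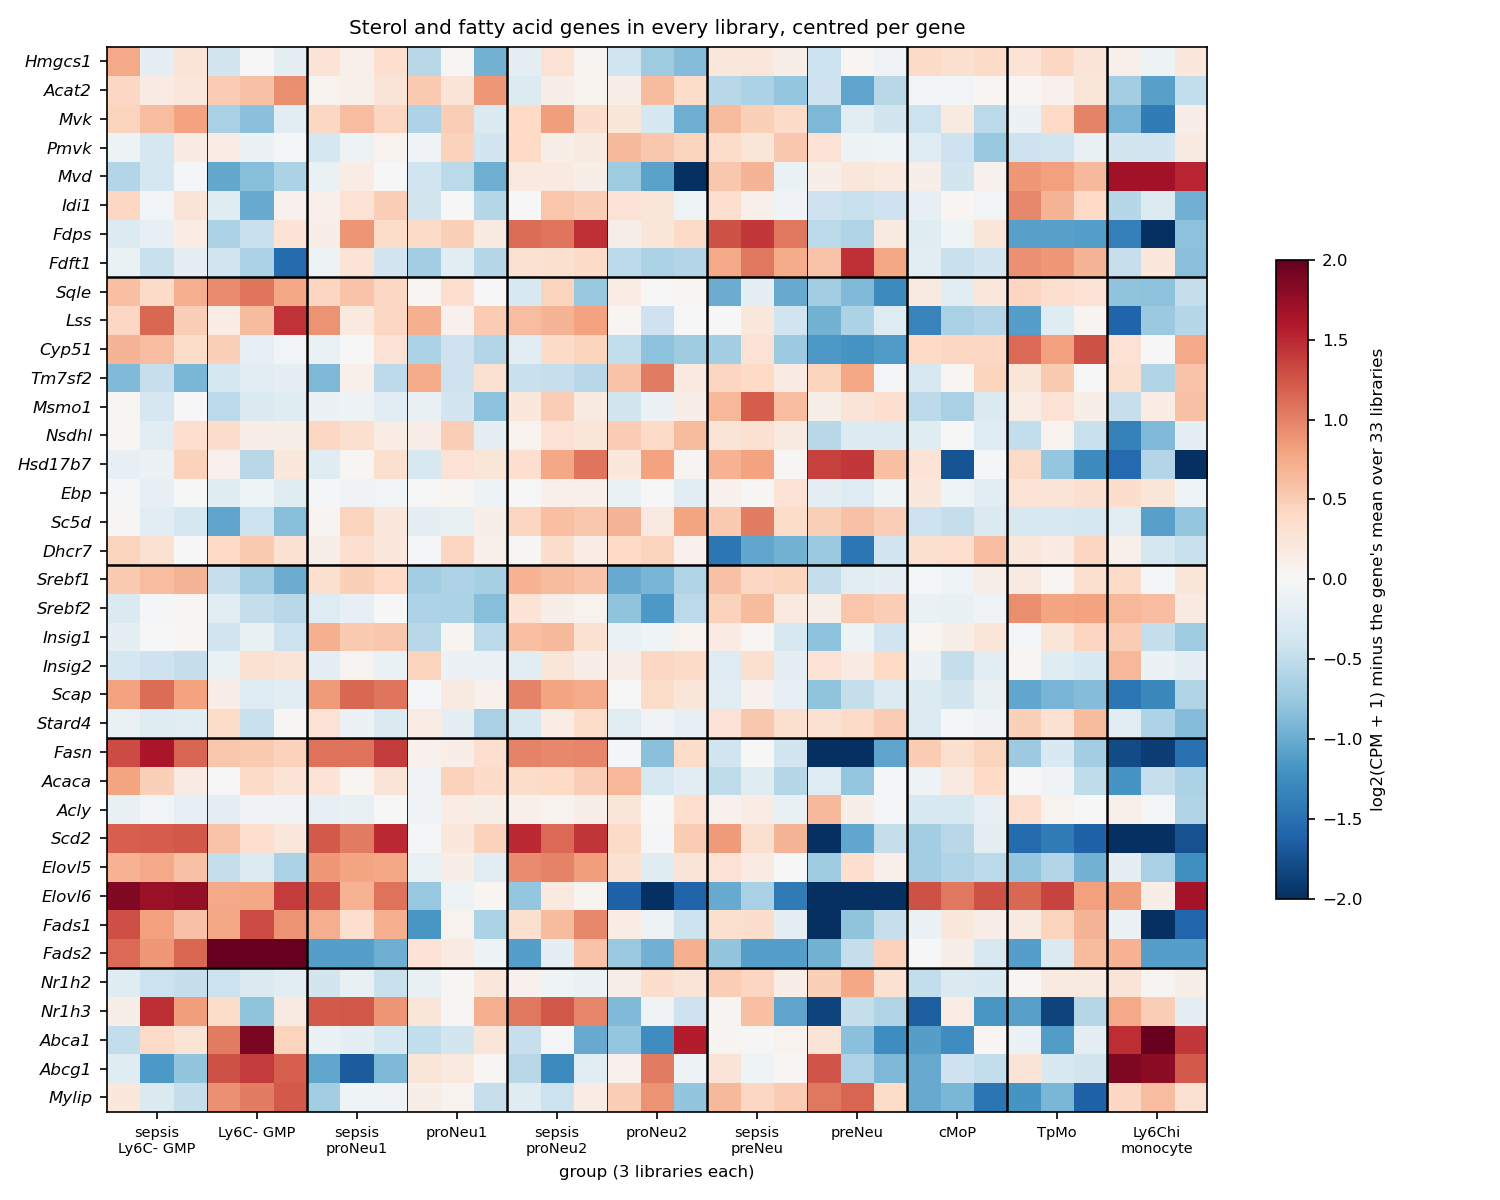
Level of the genes in each of 33 libraries, as log2(CPM + 1) minus the mean of that gene over all libraries, clipped at -2 and 2, with rows in the order of the roles and 3 columns per group. Scd1, near 0, is left out. Fasn, Scd2, Elovl5, Scap and Srebf1 are red in sepsis Ly6C- GMP, sepsis proNeu1 and sepsis proNeu2, and Fasn and Scd2 are blue in preNeu, TpMo and Ly6Chi monocytes.

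Averaged over the 4 populations, septic mice had higher levels of Srebf1 and of the fatty acid genes Fasn, Scd2 and Elovl6, modestly higher levels of most mevalonate enzymes, and lower levels of the liver X receptor targets Abcg1 and Mylip. The mean of the 4 sepsis effects was called higher for 20 and lower for 7 of the 38 genes, beside 19.6% higher and 17.5% lower among all genes tested, and the count of lower genes is near that share. By role, 6 of 8 mevalonate enzymes were higher and 1 lower, 4 of 10 enzymes after squalene higher and 1 lower, 4 of 6 SREBP and transport genes higher and 1 lower, 5 of 9 fatty acid genes higher and 1 lower, and 1 of 5 liver X receptor genes higher and 3 lower. The median effect was 0.54 for the mevalonate enzymes, 0.11 after squalene, 0.52 for SREBP control, 0.75 for fatty acid genes and -0.58 for the liver X receptor genes, against 0 for all genes tested. These 4 comparisons share no libraries with each other, but the labels do not say whether the populations came from the same mice. The fit treats all libraries as independent, so the errors of the mean effect may be too small if mice were shared. Called in single populations were 7 genes higher and 2 lower in sepsis Ly6C- GMP (all genes 10.3% and 7.42%), 8 and 1 in sepsis proNeu1 (8.3% and 7.3%), 11 and 1 in sepsis proNeu2 (9.45% and 7.57%), and 6 and 0 in sepsis preNeu (7.57% and 4.21%). For that 0, edgeR at an unadjusted p under 0.05 and DESeq2 also gave 0 lower genes, and the matching shares of lower genes over all genes were not computed.

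**Figure D2:**
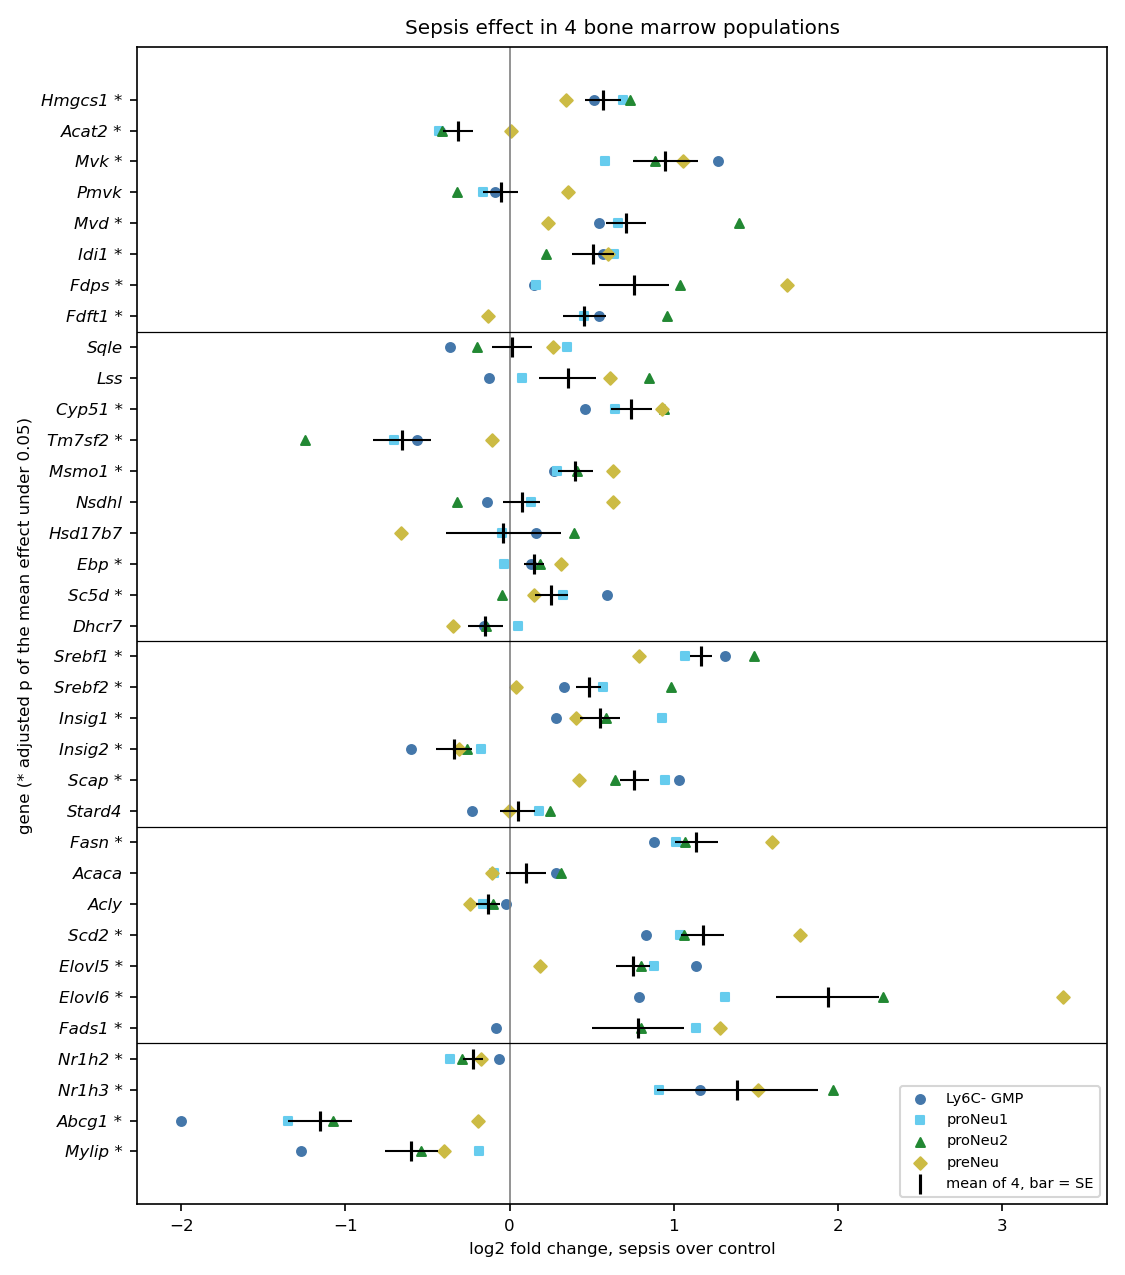
Sepsis effect as a log2 fold change, sepsis over control, without the scarce Scd1, Fads2 and Abca1. Coloured symbols are the 4 populations, the black tick is their mean and its bar the SE, and an asterisk marks an adjusted p of the mean under 0.05. All 4 symbols of Srebf1, Fasn, Scd2 and Elovl6 lie right of 0, and all 4 of Abcg1 and Mylip lie left of it.

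Markers of other cells also differed between septic and control libraries, and their part in the sepsis effects was not tested. Of the B and plasma cell markers, Ighm, an immunoglobulin heavy chain gene, had 3.81 to 42.4 CPM in sepsis Ly6C- GMP against 498 to 557 in Ly6C- GMP, and 62.1 to 238 CPM in sepsis proNeu1 against 2492 to 4299 in proNeu1. It had 14.7 to 48.7 CPM in sepsis proNeu2 against 347 to 405 in proNeu2, and 23.9 to 61.7 CPM in sepsis preNeu against 335 to 831 in preNeu. The light chain gene Igkc was likewise lower in septic libraries without overlap in all 4 populations, Jchain overlapped in preNeu alone, and Cd79a, a B cell receptor gene, stayed at 2.74 CPM or below in all 24 libraries. The 5 eosinophil, basophil and mast cell markers, all detected, summed to 2397 to 4944 CPM in sepsis Ly6C- GMP against 11330 to 16750 in Ly6C- GMP, and to at most 207 CPM in the other 6 neutrophil-path groups. The 6 granulocyte progenitor markers, which belong to the sorted cells themselves, summed to 24890 to 27010 CPM in sepsis Ly6C- GMP against 37810 to 46880 in Ly6C- GMP, 32390 to 37960 in sepsis proNeu1 against 73430 to 80760 in proNeu1, and 41460 to 43970 in sepsis proNeu2 against 93050 to 99060 in proNeu2. The granulocyte progenitor sums overlapped in preNeu, with 21880 to 22580 CPM in sepsis preNeu against 11900 to 22000 in preNeu. Their means there were 22290 and 15340 CPM. The later neutrophil markers summed to 30450 to 40620 CPM in sepsis preNeu against 69950 to 108300 in preNeu. They were also lower without overlap in proNeu1, at 437 to 844 CPM in sepsis proNeu1 against 1916 to 3916 in proNeu1. In Ly6C- GMP they were higher, at 165 to 322 CPM in sepsis Ly6C- GMP against 69.5 to 102 in Ly6C- GMP. Their sums overlapped in proNeu2.

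The 4 early progenitor markers were lower in septic libraries without overlap in all 4 populations, summing to 452 to 576 CPM in sepsis Ly6C- GMP against 934 to 1175 in Ly6C- GMP, and to 179.5 to 243 CPM in sepsis proNeu1 against 499.8 to 542 in proNeu1. They summed to 138 to 149 CPM in sepsis proNeu2 against 366 to 456 in proNeu2, and to 30.1 to 32.0 CPM in sepsis preNeu against 206 to 276 in preNeu. The 6 macrophage markers were also lower without overlap in all 4 populations, with 31.8 to 45.6 CPM in sepsis Ly6C- GMP against 56.9 to 109.9 in Ly6C- GMP, and 25.8 to 36.3 CPM in sepsis proNeu1 against 72.6 to 89.0 in proNeu1. They summed to 135 to 168 CPM in sepsis proNeu2 against 585 to 715 in proNeu2, and to 105 to 126 CPM in sepsis preNeu against 234 to 365 in preNeu. In proNeu2 most of that sum was Vcam1, at 120.1 to 157 CPM in sepsis proNeu2 and 571 to 704 CPM in proNeu2, while C1qa was at most 0.912 CPM in sepsis proNeu2 and 2.59 CPM in proNeu2. The 6 monocyte markers summed to 719.9 to 869 CPM in sepsis proNeu1 against 1016 to 1550 in proNeu1, and to 712 to 814 CPM in sepsis proNeu2 against 900.5 to 1447 in proNeu2, and their sums overlapped in Ly6C- GMP and preNeu. The 4 erythroid markers summed to 11.1 to 16.5 CPM in sepsis Ly6C- GMP against 37.1 to 63.6 in Ly6C- GMP, 9.35 to 14.02 in sepsis proNeu1 against 38.4 to 68.2 in proNeu1, and 9.72 to 15.6 in sepsis proNeu2 against 26.3 to 31.5 in proNeu2, and overlapped in preNeu. In bulk samples, fewer cells of a type and less RNA per cell cannot be told apart.

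Among the regulators, Srebf1 (chr11:60199089-60222581, minus strand) was higher in sepsis in each of the 4 populations. It had 140.5, 151 and 157 CPM in sepsis Ly6C- GMP libraries, against 71.1, 60.8 and 48.7 CPM in Ly6C- GMP libraries. In proNeu1 it had 123, 136 and 129 CPM in sepsis proNeu1 libraries, against 59.9, 63.7 and 61.5 CPM in proNeu1 libraries, and in proNeu2 159, 153 and 145 CPM in sepsis proNeu2 libraries, against 48.0, 50.7 and 64.2 CPM in proNeu2 libraries. The preNeu values were 148, 130.1 and 134 CPM in sepsis preNeu libraries, against 69.6, 83.9 and 85.7 CPM in preNeu libraries. Every septic library lay above every control library of its population. The changes were 1.31 ± 0.13, 1.07 ± 0.13, 1.49 ± 0.14 and 0.79 ± 0.13 from Ly6C- GMP to preNeu, with adjusted p of 6.58e-08, 2.56e-06, 1.15e-08 and 0.00017, and their mean was 1.16 ± 0.07 (adjusted p = 1.47e-13). The table does not separate the transcripts of Srebf1, so SREBP-1a and SREBP-1c cannot be told apart.

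Srebf2 (chr15:82147181-82205379, plus strand) was the single gene of the 38 whose sepsis effect was called different between the populations (edgeR interaction test of 3 differences, adjusted p = 0.0296, beside 6.34% of all genes tested). It had 136, 122 and 118 CPM in sepsis proNeu2 libraries, against 63.5, 49.8 and 76.7 CPM in proNeu2 libraries, with no overlap. In proNeu1 the values were 94.1, 99.5 and 112 CPM in sepsis proNeu1 libraries, against 73.0, 71.8 and 61.6 CPM in proNeu1 libraries, again without overlap. The groups overlapped in the other populations, with 91.4, 111 and 115 CPM in sepsis Ly6C- GMP libraries, against 96.0, 79.96 and 75.6 CPM in Ly6C- GMP libraries, and 154, 175 and 128 CPM in sepsis preNeu libraries, against 122, 166 and 158 CPM in preNeu libraries. The changes were 0.99 ± 0.15 in proNeu2 (adjusted p = 3.66e-05) and 0.57 ± 0.15 in proNeu1 (adjusted p = 0.011), against 0.33 ± 0.15 in Ly6C- GMP and 0.04 ± 0.15 in preNeu, where neither was called. The call in proNeu1 was lost without proNeu1 replicate 3 or sepsis proNeu1 replicate 3 (adjusted p 0.0649 to 0.0674). The interaction call was lost without the 5 shallow libraries or without proNeu2 replicate 1 or 2, preNeu replicate 2 or 3, sepsis proNeu2 replicate 1 or 2 or sepsis preNeu replicate 1 or 3 (adjusted p 0.0507 to 0.14). At an unadjusted p under 0.05, 8 of the 38 genes had an interaction. The share of all genes at that threshold was not computed, so this count cannot be set against it. The mean effect was 0.48 ± 0.08 (adjusted p = 1.05e-05).

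Scap, the escort of the SREBP precursors, was higher in 3 populations. It had 154, 190.4 and 153 CPM in sepsis Ly6C- GMP libraries, against 96.0, 72.6 and 74.5 CPM in Ly6C- GMP libraries. In proNeu1, Scap had 158, 194 and 184 CPM in sepsis proNeu1 libraries, against 85.9, 99.5 and 92.7 CPM in proNeu1 libraries. The values were 175, 152 and 147 CPM in sepsis proNeu2 libraries, against 88.0, 112 and 103 CPM in proNeu2 libraries, and 74.4, 93.0 and 78.2 CPM in sepsis preNeu libraries, against 49.5, 62.5 and 71.8 CPM in preNeu libraries. Septic libraries lay above control libraries in all 4 populations, by 1.03 ± 0.17 (adjusted p = 8.02e-05), 0.94 ± 0.17 (adjusted p = 0.000336) and 0.64 ± 0.17 (adjusted p = 0.00886) up to proNeu2. The preNeu change of 0.42 ± 0.17 was not called (adjusted p = 0.124), and the proNeu2 call was lost without proNeu2 replicate 1 (adjusted p = 0.0634). The mean effect was 0.76 ± 0.09 (adjusted p = 4.81e-08).

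The 2 INSIG genes, whose products retain SCAP, moved in opposite directions. Insig1, which is itself an SREBP target, had 28.2, 32.2 and 33.2 CPM in sepsis Ly6C- GMP libraries, against 24.4, 28.9 and 23.5 CPM in Ly6C- GMP libraries. In proNeu1, Insig1 had 53.5, 46.5 and 47.4 CPM in sepsis proNeu1 libraries, against 21.7, 33.4 and 21.99 CPM in proNeu1 libraries. In the later populations it had 49.3, 50.8 and 40.1 CPM in sepsis proNeu2 libraries, against 29.2, 30.3 and 33.7 CPM in proNeu2 libraries, and 36.0, 33.2 and 25.6 CPM in sepsis preNeu libraries, against 17.7, 30.0 and 24.3 CPM in preNeu libraries. Septic libraries exceeded control libraries in proNeu1 and proNeu2 and overlapped them in Ly6C- GMP and preNeu. The mean effect of Insig1 was 0.55 ± 0.12 (adjusted p = 0.000573), and of single populations proNeu1 was called (log2 change 0.93 ± 0.24, adjusted p = 0.00862), a call lost without the 5 shallow libraries or without proNeu1 replicate 1 or 3 (adjusted p 0.0517 to 0.112). Insig2 had 21.1, 20.0 and 19.1 CPM in sepsis Ly6C- GMP libraries, against 24.6, 33.9 and 32.8 CPM in Ly6C- GMP libraries. In proNeu1, Insig2 had 23.6, 28.2 and 24.7 CPM in sepsis proNeu1 libraries, against 37.2, 25.1 and 24.8 CPM in proNeu1 libraries. It had 23.4, 32.2 and 29.7 CPM in sepsis proNeu2 libraries, against 29.9, 36.6 and 35.6 CPM in proNeu2 libraries, and 22.4, 34.3 and 23.8 CPM in sepsis preNeu libraries, against 33.4, 30.6 and 36.2 CPM in preNeu libraries. Septic values of Insig2 lay below all control values in Ly6C- GMP and overlapped them elsewhere, and its mean effect of -0.34 ± 0.11 (adjusted p = 0.0166) was lost without the 5 shallow libraries (adjusted p = 0.121). Stard4, a sterol carrier, had a mean effect of 0.049 ± 0.11 and was not called.

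Fatty acid synthase, the product of Fasn (chr11:120805846-120824547, minus strand), builds palmitate, and its gene was higher in sepsis at every stage. Fasn had 296, 375 and 269 CPM in sepsis Ly6C- GMP libraries, against 174, 172 and 165 CPM in Ly6C- GMP libraries. In proNeu1, Fasn had 255, 255 and 318 CPM in sepsis proNeu1 libraries, against 128, 132 and 151 CPM in proNeu1 libraries. The proNeu2 values were 239.9, 233 and 236 CPM in sepsis proNeu2 libraries, against 117, 66.6 and 155 CPM in proNeu2 libraries, and the preNeu values 90.5, 120.0 and 91.4 CPM in sepsis preNeu libraries, against 19.5, 26.2 and 57.1 CPM in preNeu libraries. No septic library overlapped a control library of its population. The changes from Ly6C- GMP to preNeu were 0.88 ± 0.26, 1.01 ± 0.26, 1.07 ± 0.26 and 1.60 ± 0.27, with adjusted p of 0.0157, 0.00678, 0.00381 and 0.000143. In Ly6C- GMP the call was lost without Ly6C- GMP replicate 3 or sepsis Ly6C- GMP replicate 2 (adjusted p 0.0512 to 0.0869). The mean effect was 1.14 ± 0.13 (adjusted p = 4.74e-08). Within preNeu controls the shallow replicate 3 had the highest Fasn and Scd2 values of its group. In that library the granulocyte progenitor markers summed to 22000 CPM, against 11900 and 12120 CPM in preNeu replicates 1 and 2. Its later neutrophil markers summed to 69950 CPM, against 108300 and 100200 CPM. The part of depth or of these markers in its values was not tested.

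Scd2 and Scd1 encode stearoyl-CoA desaturases, which place a double bond into saturated fatty acids, and lie on chromosome 19 at 44293676 to 44306864 and at 44394451 to 44407709. Scd2 had 304, 308 and 314 CPM in sepsis Ly6C- GMP libraries, against 197, 169 and 156 CPM in Ly6C- GMP libraries. In proNeu1, Scd2 had 311, 272 and 375 CPM in sepsis proNeu1 libraries, against 129, 154 and 182 CPM in proNeu1 libraries. It had 374, 293 and 359.8 CPM in sepsis proNeu2 libraries, against 173, 129.7 and 189 CPM in proNeu2 libraries, and 239, 166 and 213 CPM in sepsis preNeu libraries, against 24.8, 63.9 and 94.7 CPM in preNeu libraries. Septic libraries were above control libraries in all 4 populations. From Ly6C- GMP to preNeu the changes were 0.83 ± 0.26, 1.04 ± 0.26, 1.06 ± 0.26 and 1.77 ± 0.27 (adjusted p = 0.0266, 0.00688, 0.00484 and 4.99e-05), with a mean of 1.18 ± 0.13 (adjusted p = 4.07e-08). In Ly6C- GMP the call was lost with no filter on low counts or without Ly6C- GMP replicate 2 or 3 or sepsis Ly6C- GMP replicate 1, 2 or 3 (adjusted p 0.0606 to 0.0988). Scd1 was near 0, with 0.0772, 0.216 and 0.0682 CPM in sepsis Ly6C- GMP libraries, against 2.53, 1.49 and 2.63 CPM in Ly6C- GMP libraries, and at most 2.47 CPM in every other library. Its Ly6C- GMP libraries did not overlap, but no sepsis effect of Scd1 was called, and per kilobase Scd2 averaged 5.98 to 62.8 CPM per kb and Scd1 at most 0.46 CPM per kb.

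Elovl6, the elongase that extends palmitate to stearate (chr3:129532355-129638495, plus strand), had the largest rise of the 38 genes in the mean sepsis effect. It had 51.8, 47.3 and 48.2 CPM in sepsis Ly6C- GMP libraries, against 23.8, 24.0 and 37.5 CPM in Ly6C- GMP libraries. In proNeu1, Elovl6 had 33.9, 22.6 and 29.8 CPM in sepsis proNeu1 libraries, against 7.68, 12.6 and 13.95 CPM in proNeu1 libraries. Later it had 7.57, 15.8 and 14.1 CPM in sepsis proNeu2 libraries, against 3.74, 0.102 and 3.84 CPM in proNeu2 libraries, and 6.25, 8.27 and 4.46 CPM in sepsis preNeu libraries, against 0, 0.987 and 1.17 CPM in preNeu libraries. Septic libraries lay above control libraries in each population, and the group means were lower at each later stage among septic and among control groups. The change was 2.28 ± 0.60 in proNeu2 (adjusted p = 0.00829) and 3.37 ± 0.75 in preNeu (adjusted p = 0.00268), where the control values are near 0 and the fold is imprecise. The calls were lost with a fit to the compared libraries alone (adjusted p = 0.0889) and with a fit to the compared libraries alone (adjusted p = 0.064). The Elovl6 changes in Ly6C- GMP and proNeu1 were not called (edgeR, adjusted p = 0.124 in proNeu1). The mean effect, which includes the populations with controls near 0, was 1.94 ± 0.31 (adjusted p = 1.22e-05).

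Elovl5 had 409.7, 429 and 382 CPM in sepsis Ly6C- GMP libraries, against 182, 209.5 and 164 CPM in Ly6C- GMP libraries. In proNeu1, Elovl5 had 465, 438 and 435 CPM in sepsis proNeu1 libraries, against 230.4, 279 and 219 CPM in proNeu1 libraries. In proNeu2 it had 490.4, 507 and 455 CPM in sepsis proNeu2 libraries, against 313, 215 and 304 CPM in proNeu2 libraries, and in preNeu 309, 285 and 255 CPM in sepsis preNeu libraries, against 155, 320.0 and 273 CPM in preNeu libraries. The groups did not overlap up to proNeu2 and overlapped in preNeu. The changes up to proNeu2 were 1.14 ± 0.20, 0.88 ± 0.20 and 0.80 ± 0.20 (adjusted p = 0.000185, 0.00343 and 0.00583), against 0.19 ± 0.20 in preNeu, which was not called. The proNeu1 call was lost without the 5 shallow libraries (adjusted p = 0.0614) and the proNeu2 call without proNeu2 replicate 2 (adjusted p = 0.0593). The mean effect was 0.75 ± 0.10 (adjusted p = 9.25e-07).

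Fads1 and Fads2 encode the desaturases that work beside Elovl5 on polyunsaturated fatty acids, and they differed in direction. Fads1 had 46.3, 33.3 and 28.0 CPM in sepsis Ly6C- GMP libraries, against 32.0, 46.7 and 35.3 CPM in Ly6C- GMP libraries. In proNeu1, Fads1 had 31.2, 23.3 and 31.0 CPM in sepsis proNeu1 libraries, against 7.68, 19.3 and 11.5 CPM in proNeu1 libraries. Its later values were 23.3, 29.2 and 36.7 CPM in sepsis proNeu2 libraries, against 20.5, 17.1 and 13.4 CPM in proNeu2 libraries, and 23.3, 23.9 and 16.0 CPM in sepsis preNeu libraries, against 3.65, 10.1 and 13.1 CPM in preNeu libraries. Apart from Ly6C- GMP, where the groups overlapped, septic libraries were the higher ones, and the mean effect was 0.78 ± 0.28 (adjusted p = 0.0285), a call lost with no filter on low counts or without proNeu1 replicate 1, preNeu replicate 1, sepsis Ly6C- GMP replicate 1 or sepsis proNeu2 replicate 3 (adjusted p 0.0533 to 0.0702). Fads2 had 3.75, 2.95 and 3.75 CPM in sepsis Ly6C- GMP libraries, against 19.9, 10.8 and 8.63 CPM in Ly6C- GMP libraries. In proNeu1, Fads2 had 0, 0 and 0.0959 CPM in sepsis proNeu1 libraries, against 1.65, 1.41 and 1.002 CPM in proNeu1 libraries. In the later populations it had 0, 0.889 and 2.19 CPM in sepsis proNeu2 libraries, against 0.288, 0.102 and 2.52 CPM in proNeu2 libraries, and 0.244, 0 and 0 CPM in sepsis preNeu libraries, against 0.114, 0.548 and 1.96 CPM in preNeu libraries. Fads2 was at 2.95 CPM or more in the septic and control Ly6C- GMP libraries and at 2.52 CPM or less in every other library, and the mean effect of -2.42 ± 0.80 (adjusted p = 0.0174) includes groups near 0 and was lost without the 5 shallow libraries or without proNeu2 replicate 3 (adjusted p 0.0721 to 0.0902). Acaca, the gene of the carboxylase that commits acetyl-CoA to fatty acids, and Acly had mean effects of 0.10 ± 0.12 and -0.13 ± 0.07 and were not called.

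In the mevalonate segment the called rises were spread over 6 enzymes. Mvk, mevalonate kinase, had 15.9, 18.1 and 20.7 CPM in sepsis Ly6C- GMP libraries, against 6.96, 5.97 and 9.79 CPM in Ly6C- GMP libraries. In proNeu1, Mvk had 15.7, 18.1 and 15.7 CPM in sepsis proNeu1 libraries, against 7.13, 16.5 and 9.21 CPM in proNeu1 libraries. It had 15.4, 21.1 and 14.96 CPM in sepsis proNeu2 libraries, against 13.7, 8.78 and 5.30 CPM in proNeu2 libraries, and 18.2, 16.2 and 15.2 CPM in sepsis preNeu libraries, against 5.65, 9.71 and 8.61 CPM in preNeu libraries. Groups overlapped in proNeu1 alone, the mean effect was 0.95 ± 0.20 (adjusted p = 0.000293), and the Ly6C- GMP change (log2 change 1.27 ± 0.39, adjusted p = 0.0229) was lost without Ly6C- GMP replicate 1 or 2 or sepsis Ly6C- GMP replicate 2 or 3 (adjusted p 0.0527 to 0.104). Mvd, which decarboxylates mevalonate diphosphate to isopentenyl diphosphate, had 21.4, 25.3 and 31.8 CPM in sepsis Ly6C- GMP libraries, against 15.6, 17.6 and 20.7 CPM in Ly6C- GMP libraries. In proNeu1, Mvd had 29.5, 36.4 and 32.4 CPM in sepsis proNeu1 libraries, against 24.6, 22.1 and 16.0 CPM in proNeu1 libraries. Its later values were 37.4, 37.5 and 35.6 CPM in sepsis proNeu2 libraries, against 19.6, 15.1 and 7.17 CPM in proNeu2 libraries, and 47.6, 53.0 and 29.5 CPM in sepsis preNeu libraries, against 35.4, 38.5 and 37.4 CPM in preNeu libraries. Septic libraries were higher without overlap up to proNeu2, where Mvd was called (log2 change 1.40 ± 0.25, adjusted p = 0.000191), and the mean effect was 0.71 ± 0.12 (adjusted p = 3.54e-05). Hmgcs1, which makes HMG-CoA, had 64.4, 32.6 and 45.1 CPM in sepsis Ly6C- GMP libraries, against 28.8, 37.97 and 32.7 CPM in Ly6C- GMP libraries. In proNeu1, Hmgcs1 had 45.6, 40.3 and 47.7 CPM in sepsis proNeu1 libraries, against 25.4, 38.3 and 19.0 CPM in proNeu1 libraries. The later values were 32.6, 46.3 and 39.1 CPM in sepsis proNeu2 libraries, against 28.4, 22.6 and 20.1 CPM in proNeu2 libraries, and 43.9, 44.1 and 40.8 CPM in sepsis preNeu libraries, against 27.6, 38.5 and 35.6 CPM in preNeu libraries. Hmgcs1 groups overlapped in Ly6C- GMP alone, with a mean effect of 0.57 ± 0.11 (adjusted p = 0.000138). The proNeu1 and proNeu2 changes of Hmgcs1, 0.69 ± 0.22 and 0.73 ± 0.22, were called with adjusted p of 0.0321 and 0.0204. The first was lost with no filter on low counts, without the 5 shallow libraries, with a fit to the compared libraries alone or without proNeu1 replicate 1 or 3 or sepsis proNeu1 replicate 1, 2 or 3 (adjusted p 0.0513 to 0.207), and the second without proNeu2 replicate 2 or 3 or sepsis proNeu2 replicate 2 or 3 (adjusted p 0.0559 to 0.119).

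The next 3 enzymes carry isoprenoids to squalene. Idi1, the isomerase of isopentenyl diphosphate, had 23.7, 16.9 and 21.1 CPM in sepsis Ly6C- GMP libraries, against 14.6, 8.21 and 18.6 CPM in Ly6C- GMP libraries. In proNeu1, Idi1 had 18.8, 21.7 and 25.2 CPM in sepsis proNeu1 libraries, against 13.3, 17.4 and 11.5 CPM in proNeu1 libraries. It had 17.5, 26.3 and 25.2 CPM in sepsis proNeu2 libraries, against 21.6, 20.9 and 16.5 CPM in proNeu2 libraries, and 22.3, 18.9 and 16.7 CPM in sepsis preNeu libraries, against 12.9, 12.6 and 12.9 CPM in preNeu libraries. Septic libraries stood above control libraries in proNeu1 and preNeu and overlapped them in the other 2 populations, and the mean effect was 0.51 ± 0.13 (adjusted p = 0.00225). Fdps, farnesyl diphosphate synthase, had 6.68, 7.34 and 9.28 CPM in sepsis Ly6C- GMP libraries, against 4.98, 5.83 and 10.2 CPM in Ly6C- GMP libraries. In proNeu1, Fdps had 9.25, 16.1 and 10.9 CPM in sepsis proNeu1 libraries, against 11.1, 11.97 and 9.52 CPM in proNeu1 libraries. In the later populations it had 19.2, 18.5 and 24.5 CPM in sepsis proNeu2 libraries, against 9.12, 10.002 and 11.2 CPM in proNeu2 libraries, and 21.6, 23.9 and 18.4 CPM in sepsis preNeu libraries, against 5.42, 5.15 and 9.59 CPM in preNeu libraries. Only these later populations were free of overlap. The Fdps change in preNeu (log2 change 1.69 ± 0.44, adjusted p = 0.0101) was lost without preNeu replicate 1 or 2 (adjusted p 0.0548 to 0.0612), and the mean effect was 0.76 ± 0.21 (adjusted p = 0.00553). Fdft1, squalene synthase, had 23.7, 19.0 and 23.0 CPM in sepsis Ly6C- GMP libraries, against 19.9, 16.6 and 8.40 CPM in Ly6C- GMP libraries. In proNeu1, Fdft1 had 24.5, 31.9 and 19.8 CPM in sepsis proNeu1 libraries, against 16.0, 22.3 and 17.3 CPM in proNeu1 libraries. Its later values were 32.7, 33.1 and 34.6 CPM in sepsis proNeu2 libraries, against 17.999, 16.6 and 17.1 CPM in proNeu2 libraries, and 45.3, 55.5 and 44.4 CPM in sepsis preNeu libraries, against 39.6, 73.7 and 45.6 CPM in preNeu libraries. Groups overlapped except in proNeu2, where Fdft1 was called (log2 change 0.96 ± 0.27, adjusted p = 0.0122), a call lost without proNeu2 replicate 2 (adjusted p = 0.0519). The mean effect of Fdft1 was 0.46 ± 0.13 (adjusted p = 0.00762). Acat2, the thiolase that makes acetoacetyl-CoA, was the enzyme of this segment that fell, with a mean effect of -0.31 ± 0.09 (adjusted p = 0.00729). Acat2 had 65.8, 55.4 and 57.6 CPM in sepsis Ly6C- GMP libraries, against 70.7, 74.7 and 94.7 CPM in Ly6C- GMP libraries. In proNeu1, Acat2 had 52.0, 52.9 and 59.4 CPM in sepsis proNeu1 libraries, against 71.2, 59.4 and 90.9 CPM in proNeu1 libraries. It had 40.6, 54.2 and 51.7 CPM in sepsis proNeu2 libraries, against 53.9, 76.95 and 63.8 CPM in proNeu2 libraries, and 33.4, 31.6 and 28.6 CPM in sepsis preNeu libraries, against 36.9, 23.2 and 33.3 CPM in preNeu libraries. Acat2 values were below all controls in the first 2 populations and overlapped in proNeu2 and preNeu. Pmvk, the next kinase after Mvk, had a mean effect of -0.054 ± 0.11 and was not called.

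After squalene, 4 of 10 enzymes were higher in the mean effect, and Cyp51 moved most. Cyp51, lanosterol demethylase, had 42.2, 40.2 and 33.9 CPM in sepsis Ly6C- GMP libraries, against 36.6, 23.1 and 24.9 CPM in Ly6C- GMP libraries. In proNeu1, Cyp51 had 23.7, 26.2 and 31.9 CPM in sepsis proNeu1 libraries, against 16.5, 19.2 and 16.9 CPM in proNeu1 libraries. It had 22.1, 34.3 and 35.9 CPM in sepsis proNeu2 libraries, against 18.2, 14.3 and 15.4 CPM in proNeu2 libraries, and 15.8, 32.1 and 15.2 CPM in sepsis preNeu libraries, against 11.2, 10.9 and 11.3 CPM in preNeu libraries. Overlap was confined to Ly6C- GMP among these 4, the changes were 0.94 ± 0.25 in proNeu2 and 0.93 ± 0.25 in preNeu (adjusted p = 0.00768 and 0.0149), and the mean was 0.74 ± 0.12 (adjusted p = 2.07e-05). The proNeu2 call was lost without sepsis proNeu2 replicate 3 (adjusted p = 0.0562), and the preNeu call with a fit to the compared libraries alone or without preNeu replicate 1 or sepsis preNeu replicate 2 (adjusted p 0.0503 to 0.267). Msmo1, the sterol methyl oxidase that acts after Cyp51, had 43.2, 32.9 and 42.0 CPM in sepsis Ly6C- GMP libraries, against 28.6, 34.1 and 35.1 CPM in Ly6C- GMP libraries. In proNeu1, Msmo1 had 38.5, 38.8 and 35.6 CPM in sepsis proNeu1 libraries, against 37.6, 31.9 and 23.3 CPM in proNeu1 libraries. Its later values were 48.7, 59.2 and 47.4 CPM in sepsis proNeu2 libraries, against 32.3, 38.6 and 45.8 CPM in proNeu2 libraries, and 67.0, 98.3 and 64.6 CPM in sepsis preNeu libraries, against 45.6, 50.4 and 52.8 CPM in preNeu libraries. The 2 later populations did not overlap, and the mean effect was 0.40 ± 0.11 (adjusted p = 0.00362). Sc5d, a sterol desaturase, had 47.3, 39.7 and 36.4 CPM in sepsis Ly6C- GMP libraries, against 21.99, 34.5 and 25.4 CPM in Ly6C- GMP libraries. In proNeu1, Sc5d had 48.3, 63.9 and 54.6 CPM in sepsis proNeu1 libraries, against 40.6, 41.8 and 50.9 CPM in proNeu1 libraries. It had 63.3, 71.3 and 67.9 CPM in sepsis proNeu2 libraries, against 75.5, 52.7 and 81.0 CPM in proNeu2 libraries, and 67.1, 95.3 and 60.2 CPM in sepsis preNeu libraries, against 64.9, 70.3 and 65.9 CPM in preNeu libraries. Septic Sc5d values were the higher ones in Ly6C- GMP and overlapped elsewhere. Its Ly6C- GMP change (log2 change 0.59 ± 0.20, adjusted p = 0.0412) was lost with no filter on low counts, with a fit to the compared libraries alone or without Ly6C- GMP replicate 1 or 3 or sepsis Ly6C- GMP replicate 1 or 2 (adjusted p 0.0717 to 0.196). Ebp had 80.7, 73.3 and 81.7 CPM in sepsis Ly6C- GMP libraries, against 69.1, 77.2 and 69.0 CPM in Ly6C- GMP libraries. In proNeu1, Ebp had 79.3, 77.9 and 79.2 CPM in sepsis proNeu1 libraries, against 81.2, 83.9 and 76.5 CPM in proNeu1 libraries. In the later populations Ebp had 82.0, 87.7 and 88.0 CPM in sepsis proNeu2 libraries, against 75.0, 81.3 and 70.2 CPM in proNeu2 libraries, and 87.3, 83.4 and 100.3 CPM in sepsis preNeu libraries, against 72.2, 68.8 and 77.3 CPM in preNeu libraries. Ebp overlapped in the first 2 populations and not in the later 2. The mean effects of Sc5d and Ebp were 0.25 ± 0.10 and 0.15 ± 0.06 (adjusted p = 0.0479 and 0.0478), and these calls were lost in 19 and 23 of the 31 other settings, among them DESeq2 for Ebp and no filter on low counts for both (adjusted p 0.0527 to 0.129 for Sc5d and adjusted p 0.0512 to 0.181 for Ebp). Neither call was lost without Ly6C- GMP replicate 2 or sepsis preNeu replicate 1, and for each gene the loss of most other single libraries sufficed.

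Tm7sf2, a sterol reductase, was the gene after squalene that was lower in the mean effect, at -0.65 ± 0.18 (adjusted p = 0.00417). It had 4.67, 6.59 and 4.57 CPM in sepsis Ly6C- GMP libraries, against 7.20, 7.96 and 8.28 CPM in Ly6C- GMP libraries. In proNeu1, Tm7sf2 had 4.62, 10.3 and 6.33 CPM in sepsis proNeu1 libraries, against 16.5, 6.89 and 11.9 CPM in proNeu1 libraries. It had 6.71, 6.64 and 6.11 CPM in sepsis proNeu2 libraries, against 14.5, 20.6 and 10.95 CPM in proNeu2 libraries, and 13.1, 12.9 and 10.8 CPM in sepsis preNeu libraries, against 13.2, 16.9 and 9.20 CPM in preNeu libraries. Septic libraries were below control libraries in Ly6C- GMP and proNeu2 and overlapped them in proNeu1 and preNeu. The proNeu2 change (log2 change -1.24 ± 0.36, adjusted p = 0.0145) was lost without proNeu2 replicate 2 or sepsis proNeu2 replicate 3 (adjusted p 0.0603 to 0.114). Sqle, squalene epoxidase, Lss, lanosterol synthase, and the late enzymes Nsdhl, Hsd17b7 and Dhcr7 had mean effects of 0.01 ± 0.12, 0.35 ± 0.18, 0.07 ± 0.11, -0.04 ± 0.35 and -0.15 ± 0.11, and none of these was called.

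The liver X receptor genes differed from each other. Nr1h3 was scarce, with 2.93, 9.07 and 5.46 CPM in sepsis Ly6C- GMP libraries, against 3.64, 1.07 and 3.10 CPM in Ly6C- GMP libraries. In proNeu1, Nr1h3 had 7.46, 7.52 and 5.66 CPM in sepsis proNeu1 libraries, against 3.29, 2.68 and 4.96 CPM in proNeu1 libraries. Its later values were 6.52, 7.53 and 6.11 CPM in sepsis proNeu2 libraries, against 0.960, 2.45 and 1.72 CPM in proNeu2 libraries, and 2.74, 4.49 and 0.743 CPM in sepsis preNeu libraries, against 0, 1.59 and 1.37 CPM in preNeu libraries. Septic libraries were above control libraries in proNeu1 and proNeu2, and the mean effect of 1.39 ± 0.49 (adjusted p = 0.0272) was lost without the 5 shallow libraries or without sepsis Ly6C- GMP replicate 2 or sepsis preNeu replicate 2 (adjusted p 0.0507 to 0.0599). Nr1h2, the more abundant receptor gene, had 103, 89.2 and 86.2 CPM in sepsis Ly6C- GMP libraries, against 89.2, 98.5 and 103 CPM in Ly6C- GMP libraries. In proNeu1, Nr1h2 had 93.5, 109 and 88.2 CPM in sepsis proNeu1 libraries, against 109, 122 and 141 CPM in proNeu1 libraries. It had 128, 114 and 112 CPM in sepsis proNeu2 libraries, against 132, 154 and 145 CPM in proNeu2 libraries, and 171, 164 and 132 CPM in sepsis preNeu libraries, against 169, 207 and 150.3 CPM in preNeu libraries. Its mean effect was -0.22 ± 0.06 (adjusted p = 0.00624), with septic libraries below control libraries in proNeu1 and proNeu2 alone.

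The target Abcg1, a sterol exporter (chr17:31057698-31115777, plus strand), was lower in sepsis. It had 55.4, 29.1 and 37.8 CPM in sepsis Ly6C- GMP libraries, against 161, 176 and 152 CPM in Ly6C- GMP libraries. In proNeu1, Abcg1 had 31.6, 20.0 and 34.8 CPM in sepsis proNeu1 libraries, against 77.6, 75.5 and 66.7 CPM in proNeu1 libraries. It had 44.4, 26.5 and 55.8 CPM in sepsis proNeu2 libraries, against 70.1, 136 and 61.2 CPM in proNeu2 libraries, and 79.0, 62.2 and 66.5 CPM in sepsis preNeu libraries, against 158, 42.3 and 34.8 CPM in preNeu libraries. Values of septic libraries were below those of control libraries up to proNeu2 and overlapped in preNeu. The changes were -1.999 ± 0.40 in Ly6C- GMP (adjusted p = 0.000602) and -1.35 ± 0.40 in proNeu1 (adjusted p = 0.0198). The proNeu1 call was lost with no filter on low counts, without the 5 shallow libraries or without sepsis proNeu1 replicate 2 (adjusted p 0.0532 to 0.107). Mylip had 18.8, 13.0 and 11.3 CPM in sepsis Ly6C- GMP libraries, against 31.3, 33.7 and 38.9 CPM in Ly6C- GMP libraries. In proNeu1, Mylip had 9.54, 15.05 and 15.3 CPM in sepsis proNeu1 libraries, against 17.6, 16.9 and 11.4 CPM in proNeu1 libraries. It had 13.4, 11.6 and 17.96 CPM in sepsis proNeu2 libraries, against 23.1, 30.7 and 8.83 CPM in proNeu2 libraries, and 25.9, 21.7 and 23.4 CPM in sepsis preNeu libraries, against 34.6, 37.4 and 21.1 CPM in preNeu libraries. Mylip fell without overlap in Ly6C- GMP alone (log2 change -1.27 ± 0.33, adjusted p = 0.00638). The mean effects of Abcg1 and Mylip were -1.15 ± 0.20 and -0.60 ± 0.16 (adjusted p = 2.7e-05 and 0.00432). In the same sepsis Ly6C- GMP libraries the eosinophil, basophil and mast cell markers summed to 2397 to 4944 CPM, against 11330 to 16750 CPM in Ly6C- GMP, and their part in these values was not tested. Abca1 stayed at 0.67 CPM per kb or below in every group mean and was not called.

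**Figure D3:**
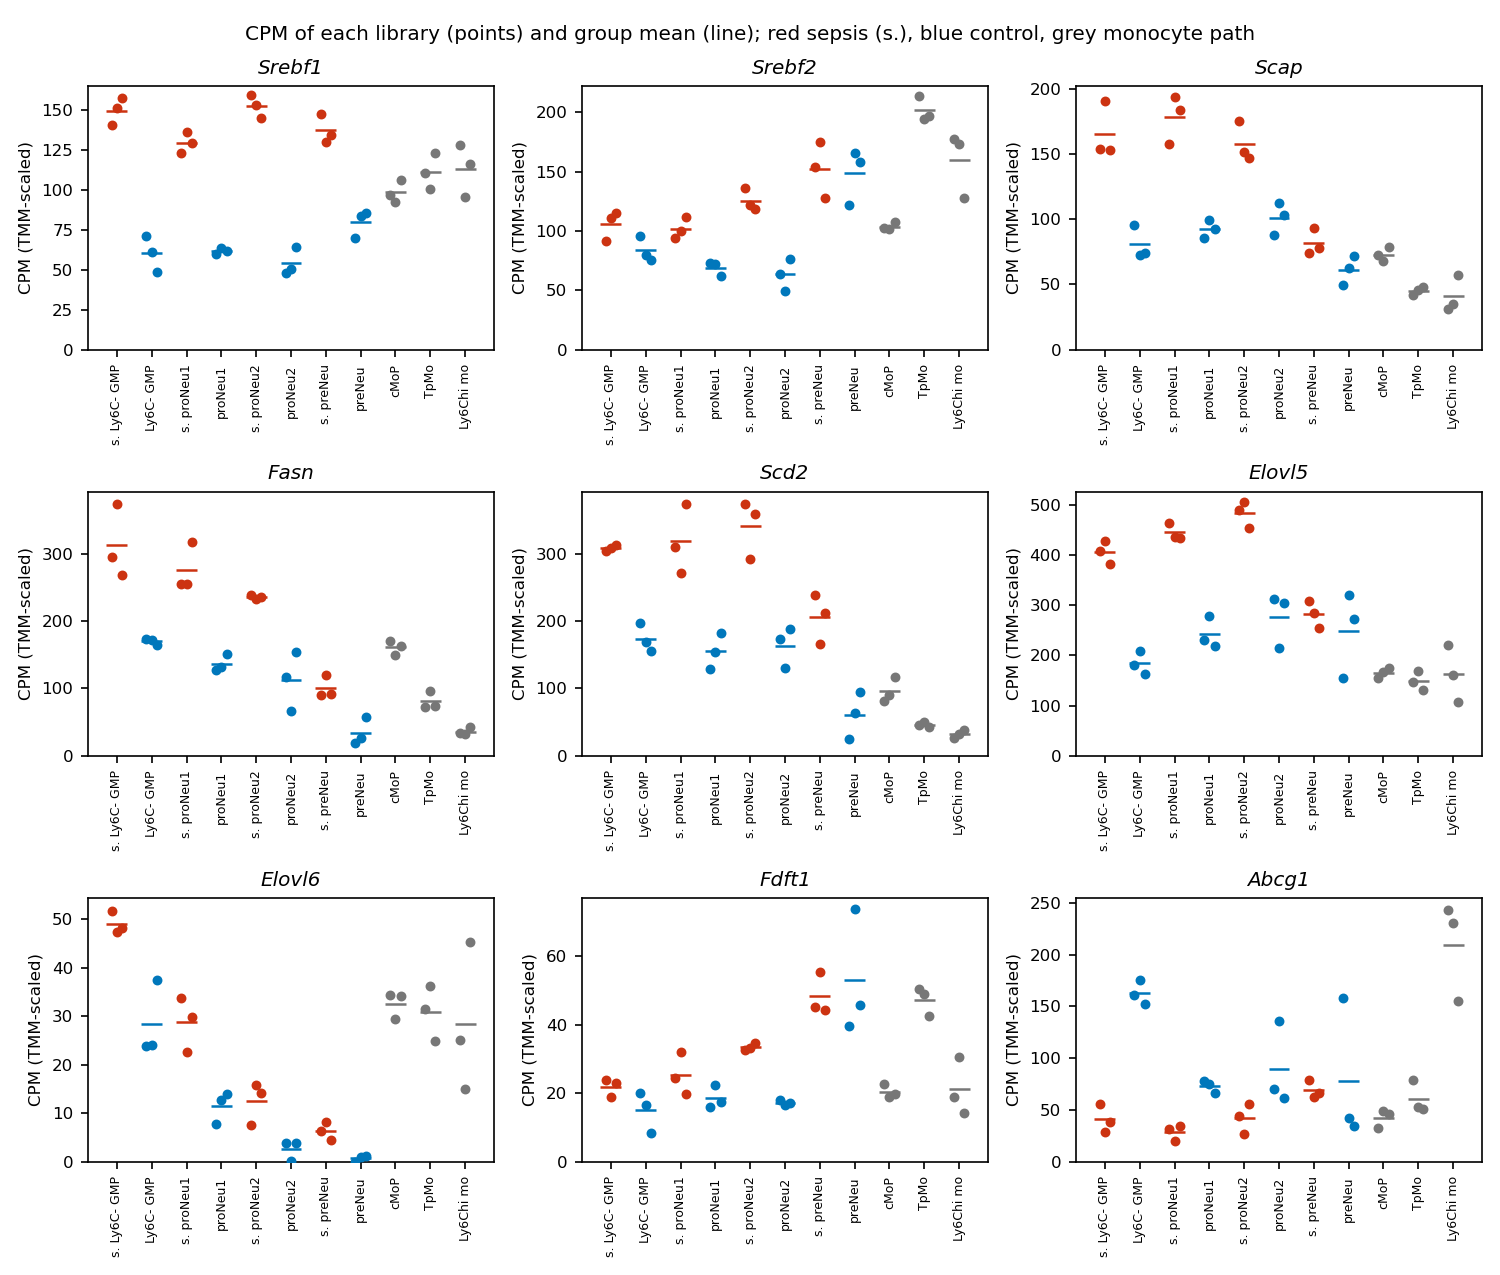
CPM in each library (points) and the group mean (line) for 9 genes; the vertical axes start at 0 and differ between panels, red points are septic groups, blue points the same populations from control mice, and grey points the monocyte path from control mice. Septic Fasn and Scd2 libraries lie above their control libraries in all 4 pairs, Srebf2 separates in proNeu1 and proNeu2, and Abcg1 is higher in Ly6Chi monocytes than in TpMo.

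Along the control neutrophil path, most calls among the 38 genes, as over all genes, were at the last step, preNeu against proNeu2. Entry from Ly6C- GMP into proNeu1 changed 1 gene upward and 2 downward (all genes 3.59% and 2.45%). Sc5d had 40.6, 41.8 and 50.9 CPM in proNeu1 libraries, against 21.99, 34.5 and 25.4 CPM in Ly6C- GMP libraries (log2 change 0.70 ± 0.20, adjusted p = 0.0344). Sqle had 30.4, 37.7 and 29.8 CPM in proNeu1 libraries, against 57.9, 63.7 and 51.4 CPM in Ly6C- GMP libraries (log2 change -0.82 ± 0.24, adjusted p = 0.0378), and Mylip 17.6, 16.9 and 11.4 CPM in proNeu1 libraries, against 31.3, 33.7 and 38.9 CPM in Ly6C- GMP libraries (log2 change -1.18 ± 0.33, adjusted p = 0.0261). Groups did not overlap for any of the 3. The Sc5d call was lost with no filter on low counts, with a fit to the compared libraries alone or without Ly6C- GMP replicate 1 or 3 or proNeu1 replicate 1, 2 or 3 (adjusted p 0.0611 to 0.223), the Sqle call without the 5 shallow libraries or without Ly6C- GMP replicate 1 or 2 or proNeu1 replicate 1 or 3 (adjusted p 0.0983 to 0.134), and the Mylip call without Ly6C- GMP replicate 2 or 3 or proNeu1 replicate 3 (adjusted p 0.058 to 0.129). The eosinophil, basophil and mast cell markers summed to 93.5 to 145 CPM in proNeu1 against 11330 to 16750 CPM in Ly6C- GMP, and the early progenitor markers to 499.8 to 542 CPM in proNeu1 against 934 to 1175 CPM in Ly6C- GMP. Ighm had 2492 to 4299 CPM in proNeu1 against 498 to 557 CPM in Ly6C- GMP, and the part of these markers in this step was not tested. In proNeu2 against proNeu1 no gene was higher and 1 was lower (all genes 1.57% and 1.48%). At an unadjusted p under 0.05, 2 were higher, and the share of all genes at that threshold was not computed. DESeq2 called 1 higher (all genes 6.06% in either direction). The lower gene was Elovl6, with 3.74, 0.102 and 3.84 CPM in proNeu2 libraries, against 7.68, 12.6 and 13.95 CPM in proNeu1 libraries (log2 change -2.17 ± 0.60, adjusted p = 0.0453), without overlap. That call was lost with no filter on low counts, without the 5 shallow libraries, with a fit to the compared libraries alone or without proNeu1 replicate 1, 2 or 3 or proNeu2 replicate 1, 2 or 3 (adjusted p 0.0542 to 0.238). At this step Ighm had 347 to 405 CPM in proNeu2 against 2492 to 4299 CPM in proNeu1, and the macrophage markers summed to 585 to 715 CPM in proNeu2 against 72.6 to 89.0 CPM in proNeu1. Their part in the Elovl6 values was not tested.

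In preNeu against proNeu2, 4 genes were higher and 8 lower (all genes 13.1% and 14.7%), and 10 of these 12 calls held in each of the 13 other settings. Fdft1 had 39.6, 73.7 and 45.6 CPM in preNeu libraries, against 17.999, 16.6 and 17.1 CPM in proNeu2 libraries (log2 change 1.62 ± 0.27, adjusted p = 3.28e-05), and Mvd had 35.4, 38.5 and 37.4 CPM in preNeu libraries, against 19.6, 15.1 and 7.17 CPM in proNeu2 libraries (log2 change 1.41 ± 0.25, adjusted p = 7.36e-05). Srebf2 and Srebf1 were also higher, by 1.23 ± 0.16 (adjusted p = 5.24e-07) and 0.55 ± 0.13 (adjusted p = 0.00211), the Srebf1 call being lost with a fit to the compared libraries alone (adjusted p = 0.0672). Fasn had 19.5, 26.2 and 57.1 CPM in preNeu libraries, against 117, 66.6 and 155 CPM in proNeu2 libraries (log2 change -1.76 ± 0.27, adjusted p = 8.82e-06), and Scd2 had 24.8, 63.9 and 94.7 CPM in preNeu libraries, against 173, 129.7 and 189 CPM in proNeu2 libraries (log2 change -1.44 ± 0.27, adjusted p = 0.000131). In these comparisons preNeu and proNeu2 libraries did not overlap. Scap, Nsdhl, Sqle, Acat2 and Dhcr7 also fell, with log2 changes of -0.73 ± 0.17, -0.90 ± 0.23, -1.03 ± 0.25, -1.06 ± 0.19 and -1.17 ± 0.22. Elovl6 was lower (log2 change -2.04 ± 0.75, adjusted p = 0.0426) with overlapping groups and a proNeu2 mean of 2.56 CPM, and that call was lost with no filter on low counts, with a fit to the compared libraries alone or without proNeu2 replicate 1 or 3 or preNeu replicate 1 (adjusted p 0.107 to 0.39). The called falls at this step included 3 of 10 enzymes after squalene and 3 of 9 fatty acid genes. The fatty acid genes summed to 964 to 1008 CPM in preNeu against 955 to 1325 CPM in proNeu2. At this step the granulocyte progenitor markers summed to 11900 to 22000 CPM in preNeu against 93050 to 99060 CPM in proNeu2, the later neutrophil markers to 69950 to 108300 CPM in preNeu against 1891 to 3743 CPM in proNeu2, and the macrophage markers to 234 to 365 CPM in preNeu against 585 to 715 CPM in proNeu2. Their part in these values was not tested.

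Along the septic neutrophil path, most calls among the 38 genes, as over all genes, were at the last step. Neither sepsis proNeu1 against sepsis Ly6C- GMP (all genes 0.83% higher and 0.456% lower) nor sepsis proNeu2 against sepsis proNeu1 (all genes 0.423% and 0.297%) had a called gene among the 38 by edgeR. At an unadjusted p under 0.05 the first had 2 higher and 2 lower and the second 3 higher and 2 lower. The shares of all genes at that threshold were not computed. DESeq2 called 1 lower in the first and 0 in the second (all genes 2.54% and 2.53% in either direction). In sepsis preNeu against sepsis proNeu2, 1 gene was higher and 6 lower (all genes 8.51% and 8.38%). Nr1h2 had 171, 164 and 132 CPM in sepsis preNeu libraries, against 128, 114 and 112 CPM in sepsis proNeu2 libraries (log2 change 0.40 ± 0.13, adjusted p = 0.0259). Dhcr7, the gene of a late reductase, had 12.8, 17.4 and 18.6 CPM in sepsis preNeu libraries, against 37.2, 47.1 and 40.4 CPM in sepsis proNeu2 libraries (log2 change -1.37 ± 0.22, adjusted p = 4.38e-05), and Fasn 90.5, 120.0 and 91.4 CPM in sepsis preNeu libraries, against 239.9, 233 and 236 CPM in sepsis proNeu2 libraries (log2 change -1.23 ± 0.26, adjusted p = 0.00104). Groups did not overlap for these 3. Scap, Acaca, Elovl5 and Acat2 fell, with log2 changes of -0.95 ± 0.17, -0.88 ± 0.25, -0.77 ± 0.20 and -0.64 ± 0.18. The Nr1h2 call was lost with no filter on low counts or without sepsis proNeu2 replicate 2 or 3 or sepsis preNeu replicate 1 or 2 (adjusted p 0.0525 to 0.144). The Acat2 call was lost without the 5 shallow libraries or without sepsis proNeu2 replicate 2 or 3 or sepsis preNeu replicate 3 (adjusted p 0.061 to 0.0768), the Acaca call without the 5 shallow libraries or without sepsis proNeu2 replicate 3 or sepsis preNeu replicate 1 or 3 (adjusted p 0.0509 to 0.059) and the Elovl5 call without the 5 shallow libraries (adjusted p = 0.0639). Fdft1, Mvd and Srebf2, called in the control step, changed here by 0.53 ± 0.27, 0.25 ± 0.24 and 0.28 ± 0.15 without a call. The granulocyte progenitor markers summed to 21880 to 22580 CPM in sepsis preNeu against 41460 to 43970 CPM in sepsis proNeu2, and the later neutrophil markers to 30450 to 40620 CPM in sepsis preNeu against 1506 to 2245 CPM in sepsis proNeu2. Their part in these values was not tested. Whether the septic and the control step differ was tested only through the interaction over the 4 populations, which called Srebf2.

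Entry into the monocyte path changed 2 genes upward and 6 downward in cMoP against Ly6C- GMP (all genes 9.22% and 7.96%). Srebf1 had 96.6, 92.2 and 106 CPM in cMoP libraries, against 71.1, 60.8 and 48.7 CPM in Ly6C- GMP libraries (log2 change 0.71 ± 0.13, adjusted p = 0.000289), and Mvd 35.6, 25.1 and 34.6 CPM in cMoP libraries, against 15.6, 17.6 and 20.7 CPM in Ly6C- GMP libraries (log2 change 0.82 ± 0.25, adjusted p = 0.0189). Mylip had 7.49, 8.03 and 5.22 CPM in cMoP libraries, against 31.3, 33.7 and 38.9 CPM in Ly6C- GMP libraries (log2 change -2.32 ± 0.34, adjusted p = 1.1e-05), and Abcg1 32.2, 48.9 and 46.3 CPM in cMoP libraries, against 161, 176 and 152 CPM in Ly6C- GMP libraries (log2 change -1.94 ± 0.40, adjusted p = 0.000784). All 4 genes were free of overlap. Lss, Sqle, Scd2 and Acat2 were lower, with log2 changes of -1.76 ± 0.36, -0.88 ± 0.24, -0.85 ± 0.26 and -0.72 ± 0.18. The call of Mvd was lost without Ly6C- GMP replicate 1 or 2 or cMoP replicate 1 or 3 (adjusted p 0.0609 to 0.0865), that of Scd2 with no filter on low counts or without Ly6C- GMP replicate 1 or cMoP replicate 1 or 2 (adjusted p 0.0521 to 0.109), that of Sqle without cMoP replicate 2 (adjusted p = 0.0719) and that of Acat2 without Ly6C- GMP replicate 3 (adjusted p = 0.0522). The eosinophil, basophil and mast cell markers summed to 11.7 to 22.3 CPM in cMoP against 11330 to 16750 CPM in Ly6C- GMP, the early progenitor markers to 473 to 549 CPM in cMoP against 934 to 1175 CPM in Ly6C- GMP, and the monocyte markers to 5283 to 5639 CPM in cMoP against 439 to 558 CPM in Ly6C- GMP. The sexes of these groups also differ, and the part of either in these values was not tested.

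In TpMo against cMoP, 8 genes were higher and 4 lower (all genes 9.52% and 8.56%). The called rises were 3 of 8 mevalonate enzymes, 2 of 10 enzymes after squalene, 2 of 6 SREBP and transport genes and Nr1h2. The falls were Fdps, Scap and 2 of 9 fatty acid genes, Fasn and Scd2. Fdft1 had 50.4, 48.9 and 42.4 CPM in TpMo libraries, against 22.5, 19.0 and 19.8 CPM in cMoP libraries (log2 change 1.21 ± 0.27, adjusted p = 0.00148), and Srebf2 214, 195 and 197 CPM in TpMo libraries, against 103, 101.3 and 107 CPM in cMoP libraries (log2 change 0.96 ± 0.15, adjusted p = 3.44e-05). Scd2 had 45.1, 49.8 and 42.4 CPM in TpMo libraries, against 81.7, 90.1 and 117 CPM in cMoP libraries (log2 change -1.07 ± 0.27, adjusted p = 0.00429), and Fdps 3.37, 3.36 and 3.32 CPM in TpMo libraries, against 6.86, 7.79 and 10.03 CPM in cMoP libraries (log2 change -1.29 ± 0.43, adjusted p = 0.0369). No group overlapped for these 4, and the Fdps call was lost without cMoP replicate 1, 2 or 3 or TpMo replicate 1, 2 or 3 (adjusted p 0.051 to 0.131). Mvd, Idi1, Cyp51, Msmo1, Stard4 and Nr1h2 were higher by 0.84 ± 0.24, 0.79 ± 0.25, 0.70 ± 0.24, 0.69 ± 0.21, 0.62 ± 0.21 and 0.50 ± 0.13. Of these, Mvd was lost without cMoP replicate 2 or TpMo replicate 1 (adjusted p 0.0628 to 0.118). Idi1, Cyp51, Msmo1 and Stard4 were each lost in 5 to 7 of 13 other settings, and each of the 6 cMoP and TpMo libraries was needed for at least 1 of the 4 (adjusted p 0.0532 to 0.202 where lost). Fasn and Scap fell, with log2 changes of -1.0005 ± 0.26 and -0.70 ± 0.17. The granulocyte progenitor markers summed to 2418 to 2558 CPM in TpMo against 27870 to 29950 CPM in cMoP, the early progenitor markers to 40.5 to 58.9 CPM in TpMo against 473 to 549 CPM in cMoP, and the macrophage markers to 123 to 149 CPM in TpMo against 42.5 to 58.6 CPM in cMoP. Their part in these values was not tested.

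In Ly6Chi monocytes against TpMo, 3 genes were higher and 9 lower (all genes 7.59% and 13.3%). Abcg1 had 244, 231 and 155 CPM in Ly6Chi monocyte libraries, against 78.8, 53.2 and 50.5 CPM in TpMo libraries (log2 change 1.79 ± 0.40, adjusted p = 0.00124), and Mylip 21.7, 25.1 and 20.1 CPM in Ly6Chi monocyte libraries, against 6.57, 8.10 and 4.55 CPM in TpMo libraries (log2 change 1.80 ± 0.34, adjusted p = 0.000176). Idi1 had 11.5, 14.3 and 8.52 CPM in Ly6Chi monocyte libraries, against 35.1, 28.6 and 23.4 CPM in TpMo libraries (log2 change -1.36 ± 0.26, adjusted p = 0.000233), and Fads1 16.8, 0 and 5.47 CPM in Ly6Chi monocyte libraries, against 20.9, 25.5 and 29.9 CPM in TpMo libraries (log2 change -1.70 ± 0.57, adjusted p = 0.0334). All 4 were free of overlap, and the Fads1 call was lost with no filter on low counts, with a fit to the compared libraries alone or without TpMo replicate 2 or 3 or Ly6Chi monocyte replicate 2 or 3 (adjusted p 0.0549 to 0.238). Mvd, called higher at all 3 monocyte-path steps, was higher by 0.86 ± 0.24, a call lost without TpMo replicate 3 (adjusted p = 0.0602). Fdft1, Fasn, Sqle, Stard4 and Acat2 were lower, with log2 changes of -1.18 ± 0.27, -1.16 ± 0.26, -1.07 ± 0.24, -1.05 ± 0.22 and -0.87 ± 0.18. Mvk and Cyp51 were also lower, with log2 changes of -1.15 ± 0.39 and -0.71 ± 0.25. The Mvk call was lost with RLE factors, without the 5 shallow libraries, with a fit to the compared libraries alone or without TpMo replicate 2 or 3 or Ly6Chi monocyte replicate 1 or 2 (adjusted p 0.0515 to 0.21). The Cyp51 call was lost with RLE factors, without the 5 shallow libraries, with a fit to the compared libraries alone or without TpMo replicate 1 or 3 or Ly6Chi monocyte replicate 1 or 2 (adjusted p 0.0633 to 0.181). Stepwise from cMoP, Mvd averaged 31.8 ± 5.78, 56.9 ± 4.47 and 103 ± 6.79 CPM, and Fdft1 20.4 ± 1.87, 47.2 ± 4.25 and 21.2 ± 8.30 CPM in cMoP, TpMo and Ly6Chi monocytes (SD, n = 3 each). The macrophage markers summed to 274 to 501 CPM in Ly6Chi monocytes against 123 to 149 CPM in TpMo, and the granulocyte progenitor markers to 88.8 to 177 CPM in Ly6Chi monocytes against 2418 to 2558 CPM in TpMo. Their part in these values was not tested.

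**Figure D4:**
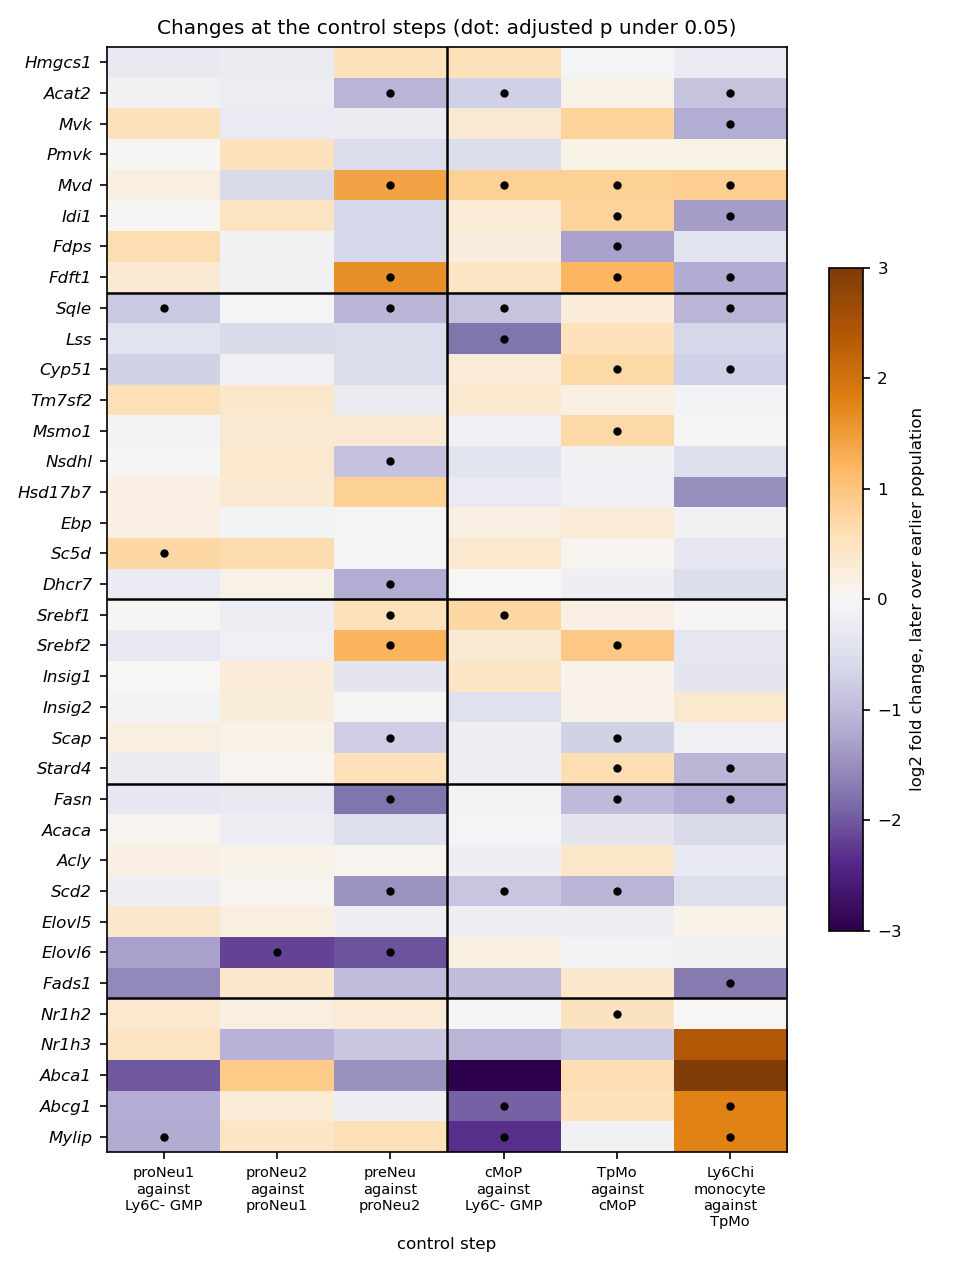
Log2 fold changes, later over earlier population, at 6 control steps (columns) by gene (rows, in the order of the roles, without Scd1 and Fads2), with colours clipped at -3 and 3 and a dot where the adjusted p is under 0.05. Fdft1 and Srebf2 are orange with a dot at preNeu against proNeu2 and at TpMo against cMoP, where Fasn and Scd2 are purple with a dot.

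The paralogue pairs can be read over all groups per kilobase. Srebf1 averaged 9.64 to 14.2 CPM per kb in the control neutrophil-path groups, 23.0 to 27.1 in the septic groups and 17.5 to 20.1 along the monocyte path, and Srebf2 8.81 to 20.7, 14.2 to 21.2 and 14.4 to 28.1 CPM per kb in the same sets. Insig1 averaged 7.76 to 15.9 and Insig2 5.79 to 9.80 CPM per kb over all 11 groups. Nr1h2 averaged 27.6 to 52.2 CPM per kb, above Nr1h3 in every group.

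Other genes of the same routes, 47 by list and 45 of them tested, were tested in the same fit, and their calls were not refitted under other settings. The gene with the largest rise and the gene with the largest fall of each list are named. In the mean sepsis effect 5 of 16 further sterol genes were higher and 3 lower (all genes 19.6% and 17.5%, shares that also stand beside the next 2 lists), with Scarb1, a receptor for lipoprotein cholesterol, at 0.83 ± 0.08 (adjusted p = 4.79e-09) and Osbp, an oxysterol-binding protein gene, at -0.65 ± 0.13 (adjusted p = 0.00013). Of 19 further fatty acid genes 7 were higher and 4 lower, with Acacb, the second acetyl-CoA carboxylase gene, at 4.35 ± 0.54 (adjusted p = 2.08e-07) and Lpin1, a phosphatidate phosphatase gene, at -1.96 ± 0.67 (adjusted p = 0.0221). Acacb had 5.97, 9.43 and 11.6 CPM in sepsis proNeu1 libraries, against 0, 0 and 0.215 CPM in proNeu1 libraries, and 12.2, 9.79 and 19.3 CPM in sepsis preNeu libraries, against 0, 0.713 and 0 CPM in preNeu libraries, so that the folds rest on controls near 0. Of 10 further liver X receptor genes 3 were higher and 3 lower, with Abca7 at 0.42 ± 0.07 (adjusted p = 5.08e-05) and Apoe at -1.30 ± 0.19 (adjusted p = 3.33e-06). Apoe had 15.1, 14.6 and 18.2 CPM in sepsis proNeu1 libraries, against 61.4, 33.9 and 53.6 CPM in proNeu1 libraries, but 40.8, 89.5 and 27.1 CPM in sepsis preNeu libraries, against 24.6, 16.2 and 22.9 CPM in preNeu libraries. It was lower without overlap in sepsis proNeu1 and higher without overlap in sepsis preNeu, with log2 changes of -1.63 ± 0.39 and 1.33 ± 0.39, and its sepsis effects differed between populations (interaction, adjusted p = 1.32e-05). These 2 changes do not by themselves give the mean of -1.30, which also takes in Ly6C- GMP and proNeu2. The Apoe values of those populations are not listed here.

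At the control steps the further sterol genes included Soat1, which esterifies cholesterol, higher in proNeu1 and in cMoP against Ly6C- GMP by 1.28 ± 0.12 and 2.13 ± 0.12 (adjusted p = 1.08e-08 and 2.44e-13). The shares over all genes given with each step above apply to these lists too, and several of the counts are near them. In preNeu against proNeu2, 1 of 16 was higher and 3 lower (all genes 13.1% and 14.7%), with Npc1 at 0.81 ± 0.30 and Npc2 at -0.89 ± 0.11, both genes of cholesterol exit from lysosomes. In TpMo against cMoP 6 of 16 were higher and none lower (all genes 9.52% and 8.56%), and in Ly6Chi monocytes against TpMo 3 were higher and 3 lower (all genes 7.59% and 13.3%). Cyp27a1, the sterol hydroxylase gene, rose at both of these steps, by 2.53 ± 0.68 and 2.28 ± 0.67 (adjusted p = 0.00844 and 0.0134). Among the further fatty acid genes, 3 of 19 were higher and 5 lower in preNeu against proNeu2, with Elovl7 at 1.91 ± 0.49 and Hacd3, a dehydratase gene of chain elongation, at -1.95 ± 0.21. In Ly6Chi monocytes against TpMo 3 of 19 were lower and none higher, with Tecr, the last reductase gene of elongation, at -0.77 ± 0.10. In cMoP against Ly6C- GMP 1 of 19 was higher and 3 lower (all genes 9.22% and 7.96%), with Elovl7 at 2.10 ± 0.49 and Acss2, a gene of acetyl-CoA supply, at -3.27 ± 0.41. In TpMo against cMoP 3 were higher and 2 lower, with Acss2 at 1.72 ± 0.39 and Hacd3 at -0.79 ± 0.20.

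Among the further liver X receptor genes, 3 of 10 were higher and 3 lower in cMoP against Ly6C- GMP (all genes 9.22% and 7.96%). In TpMo against cMoP 6 were higher and 2 lower (all genes 9.52% and 8.56%). In Ly6Chi monocytes against TpMo 3 were higher and 1 lower (all genes 7.59% and 13.3%), and the count of lower genes is near that share. Pltp, a phospholipid transfer protein gene, had 26.9, 23.6 and 3.65 CPM in Ly6Chi monocyte libraries, against 0.118, 0 and 1.09 CPM in TpMo libraries, without overlap (log2 change 5.45 ± 1.39, adjusted p = 0.00604). In Ly6Chi monocyte replicate 3 the 10 genes of this list summed to 2087 CPM, against 3487 and 3900 CPM in replicates 1 and 2. The cause of that difference was not tested. The largest fall at that step was Lpcat3, a phospholipid-remodelling gene, at -0.53 ± 0.12. In preNeu against proNeu2, 2 of 10 were higher and 2 lower (all genes 13.1% and 14.7%), counts near those shares, with Apoe at -1.15 ± 0.39. In sepsis preNeu against sepsis proNeu2 3 were higher and none lower (all genes 8.51% and 8.38%), with Apoe at 1.59 ± 0.39. Apoe thus had called changes of opposite sign at the control and the septic step.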

How the data were processed

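RNA was sequenced from 33 libraries in 11 groups of 3. The deposited table holds whole-number counts per gene, which the authors made with STAR and featureCounts on GRCm38, per the submitters' processing notes; versions, strand setting and filters are not given in the sources used here. Of the counts from 1 to 10, 76.2% were even, and halving all counts was among the alternatives. Libraries held 5.52 to 40 megacounts. Replicates are called biological in the labels, and no 2 libraries were identical.

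From these counts, edgeR 4.0.16 (R 4.3.3, limma 3.58.1) was run with TMM factors, filterByExpr and the robust quasi-likelihood test on a model with 1 mean per group, which left 22 residual degrees of freedom. The biological coefficient of variation was 0.472. p-values were adjusted by the Benjamini-Hochberg method over 18198 genes. The 38 genes, the further lists and the tests were chosen with earlier results of these data known. Values in full were given, per comparison, for the called genes at 5 CPM or more that ranked in the top 2 by rise or by fall, for every gene called in the mean sepsis effect or the interaction, and for 4 paralogue pairs. The alternatives were DESeq2 1.42.0, RLE factors, no filter, a filter of 5 CPM in 3 libraries, only the libraries compared, halved counts, and the loss of each library or of the 5 shallow ones. In a test on simulated data of 17355 genes, the sepsis proNeu2 comparison recovered 55% of 2-fold and 91% of 4-fold changes, and the interaction 22% and 70%. Of the genes called, 0.68% and 6.12% in the same order carried no planted change. The interaction changes were planted in the sepsis proNeu2 group alone, so the interaction rates do not cover effects that differ by degrees over the populations. The changes were planted only in genes averaging 5 CPM or more, so these rates do not cover scarcer genes. Apart from those changes, each simulated gene had the same mean level in every group. Windows and motifs came from RefSeq on GRCm38.p6. The value of 1 B cell marker is not reported here.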

Additional observations from a re-analysis of the deposited data

Results flagged for a closer look

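The sepsis effect on Srebf2 differed between populations by a test of the difference itself (edgeR interaction test, adjusted p = 0.0296). The log2 changes, sepsis over control, ran 0.33, 0.57, 0.99 and 0.04 from Ly6C- GMP through the 2 proNeu stages to preNeu. In 9 of 31 other settings the adjusted p was above the threshold, and over all 31 it ran from 0.00293 to 0.14.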

How the results depend on the processing

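Counts below are of the 38 genes called in either direction, unless all genes are named, and the number of genes tested differs between settings. No called gene changed direction under any setting: of 119 calls, 69 held in every other setting and 50 were lost in at least 1. Leaving aside the loss of single libraries, the count moved by more than 1.5 times, or to or from 0, in these cases, and the cause was not tested. For proNeu1 against Ly6C- GMP, 6 genes were called with only the libraries compared and 6 by DESeq2, against 3. Over all genes these counts were 1015 and 1458, against 1100. For proNeu2 against proNeu1, 0 were called with no filter, 0 without the 5 shallow libraries, 0 with only the libraries compared and 2 by DESeq2, against 1. All genes gave 408, 478, 353 and 1102 in that order, against 555. For sepsis proNeu1 against sepsis Ly6C- GMP, 2 were called with only the libraries compared and 1 by DESeq2, against 0 (all genes 489 and 463, against 234). For sepsis proNeu2 against sepsis proNeu1, 1 was called with only the libraries compared, against 0 (all genes 661, against 131). For sepsis preNeu against sepsis proNeu2, 15 were called with only the libraries compared, against 7 (all genes 4191, against 3073). For sepsis proNeu1 against proNeu1, 5 were called without the 5 shallow libraries, against 9 (all genes 1745, against 2839). For the interaction, 2 were called with the stricter filter and 3 by DESeq2, against 1 (all genes 1379 and 2082, against 1154).

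With each library left out in turn, the counts ranged from 0 to 2 for proNeu1 against Ly6C- GMP, were 0 throughout for proNeu2 against proNeu1, and ranged from 11 to 13 for preNeu against proNeu2, from 6 to 8 for cMoP against Ly6C- GMP, from 6 to 9 for TpMo against cMoP and from 8 to 13 for Ly6Chi monocyte against TpMo. They were 0 for the first 2 septic steps and 5 to 8 for sepsis preNeu against sepsis proNeu2. For the sepsis effects they ranged from 6 to 8 in Ly6C- GMP, 6 to 9 in proNeu1, 8 to 13 in proNeu2 and 4 to 7 in preNeu, from 24 to 27 for the mean effect and from 0 to 3 for the interaction. By the same measure, the count moved in 5 of 6 such fits for proNeu1 against Ly6C- GMP and 6 of 6 for proNeu2 against proNeu1. It also moved in 2 of 6 for TpMo against cMoP and 10 of 24 for the interaction. RLE factors moved the median of all genes by at most 0.068 on the log2 scale.

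No paired analysis was possible because the labels give no replicate numbers shared between groups. With 3 libraries a group, 5 of them shallow, changes near 2-fold can be missed, and scarce genes such as Nr1h3, Fads2, Abca1 and Scd1 have wide errors.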

Other observations

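Of the 38 genes, 9 were called in no comparison of 2 groups, namely Abca1, Acly, Ebp, Fads2, Hsd17b7, Insig2, Nr1h3, Pmvk and Scd1. The matching count over all genes tested was not made.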
